A study of Homo sapiens with 2 samples.

Results

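SOX4, the gene disrupted in this experiment, was examined together with the other SOX transcription factors listed for Hep3B cells and with CASC15, the long non-coding RNA gene beside SOX4. The 9 names were SOX4, SOX11, SOX12, SOX5, SOX6, SOX13, SOX9, SOX2 and CASC15. A name was taken up where the array annotation gave a transcript cluster, the array's unit of measurement for 1 gene, that single symbol, and where a gene had several such clusters the one with the highest mean of both arrays was kept. This found 8 of the 9 among 33616 named genes. SOX6 was the exception, because its cluster carried the symbol of the microRNA gene MIR6073 as well and could not be assigned to either.

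Hep3B is an established line from a human hepatocellular carcinoma, and its total RNA was hybridised to Affymetrix whole-transcript arrays. One culture was the parental line, labelled wildtype, and the other was the same line with endogenous SOX4 knocked out by CRISPR/Cas9. There was 1 array for each, so no difference has a replicate check, and none is given with a test or an error. Both cultures were harvested at 80% confluence, but only the medium of the knockout line held puromycin, at 1 ug/ml, so genotype, drug and array cannot be told apart. The sources used here give neither the guide sequence nor whether the knockout line was 1 clone.

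SOX proteins bind the minor groove of DNA through an HMG box and bend it, and they usually act with partner factors at the same site. They are grouped by the sequence of this box. Group C (SOX4, SOX11, SOX12) activates genes in embryonic progenitors and neurons, and SOX4 is often abundant in tumours, liver cancer among them. Group D (SOX5, SOX6, SOX13) has no transactivation domain of its own and pairs through a coiled coil, group E holds SOX9, which directs cartilage, testis and bile duct fates, and group B1 holds SOX2, a factor of pluripotent and neural stem cells.

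The windows just upstream of the start sites are shown for the 4 members that stood lower in the knockout array. These were SOX4, CASC15, SOX2 and, in the cluster kept for it, SOX5. The letters SOX proteins bind can be looked for in these windows. Each is the 250 bases before a start site in RefSeq, build GRCh38.p14, written 5′ to 3′ on the strand of the gene. Capitals mark ACAAAG or ACAATG, 2 forms of the sequence that SOX proteins bind, or their reverse complements CTTTGT and CATTGT.
SOX4, chr6:21593501-21593750, plus strand: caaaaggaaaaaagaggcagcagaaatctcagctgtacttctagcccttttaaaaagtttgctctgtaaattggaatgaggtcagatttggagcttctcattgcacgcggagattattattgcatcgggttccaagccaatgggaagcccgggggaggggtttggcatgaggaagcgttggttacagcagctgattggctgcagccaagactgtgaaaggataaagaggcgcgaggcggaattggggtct
CASC15, chr6:21666163-21666412, plus strand: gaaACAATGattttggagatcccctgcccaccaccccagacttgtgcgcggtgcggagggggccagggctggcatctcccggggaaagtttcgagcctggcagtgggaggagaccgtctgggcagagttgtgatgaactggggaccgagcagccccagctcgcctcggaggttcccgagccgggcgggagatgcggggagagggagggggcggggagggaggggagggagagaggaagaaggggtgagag
SOX2, chr3:181711675-181711924, plus strand: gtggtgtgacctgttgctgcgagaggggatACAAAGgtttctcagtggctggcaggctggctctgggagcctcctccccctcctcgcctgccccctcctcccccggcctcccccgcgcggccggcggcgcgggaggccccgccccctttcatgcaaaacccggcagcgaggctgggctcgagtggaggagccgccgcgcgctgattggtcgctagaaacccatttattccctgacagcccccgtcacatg
SOX5, chr12:24562492-24562741, minus strand: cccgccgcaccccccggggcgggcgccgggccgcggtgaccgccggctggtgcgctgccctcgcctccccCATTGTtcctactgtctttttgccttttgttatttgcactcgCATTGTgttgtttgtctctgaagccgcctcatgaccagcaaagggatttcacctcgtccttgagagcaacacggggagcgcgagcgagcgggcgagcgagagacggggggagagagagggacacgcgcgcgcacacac

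The SOX4 window held 0 of these motifs, those of CASC15 and SOX2 held 1 each, and that of SOX5 held 2. Among 35116 RefSeq windows of the same length 21.2% held at least 1. The windows of SOX12 and SOX13 held 0 each, and of 5 windows at different starts of SOX6, 3 held 0, 1 held 1 and 1 held 3. Windows of SOX9 and SOX11 were not analysed here. The G and C content was 48.8% before SOX4, 66.8% before CASC15, 68.8% before SOX2 and 65.6% before SOX5, against a median of 58% over all windows. These matches describe letters and do not show binding. The printed windows were picked by the direction of the difference, and a link between motifs and direction was not tested.

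None of the 7 SOX genes and CASC15 that could be measured differed by 2-fold or more between the arrays. The values are the deposited log2 values, and a difference is always knockout minus parental, so that 1 on this scale is 2-fold. Genes counted as above the level filter had a value over 4.78 in at least 1 array, a cutoff set at the median of the brighter value across named genes, and 7 of the 8 measured members passed it. SOX11 did not. Over all named genes 5.3% were at least 2-fold apart, and of 16808 above the filter 10.1% were. Those above the filter split into 6.5% that were higher and 3.64% that were lower after knockout. Among the 8 measured members 4 stood above 0 and 4 below, with a median difference of -0.23, where all named genes had a median of 0.

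SOX4 lay well above the level filter in both arrays and was somewhat lower after knockout. Its single cluster read 12.44 after knockout and 13.14 in parental cells. The difference was -0.70, or 1.62-fold lower. Of 1016 other genes whose mean lay within 0.5 of that of SOX4 on the log2 scale, 214 or 21.1% differed by as much or more in either direction. A cluster value summarises probes over a transcript, and the edited position is not given, so a transcript with a small insertion or deletion would still be counted. The array therefore does not report on SOX4 protein.

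The other group C genes did not stand lower. SOX12, the weakest activator of the group in assays of the mouse proteins, read 5.12 after knockout and 4.50 in parental cells. The parental value was under the level filter, and the difference of 0.62 was 1.53-fold. SOX11, a neuronal factor that shares many functions with SOX4 in the mouse embryo, stood at 3.09 against 2.80. Both values of SOX11 lay under the filter and are not shown to exceed background.

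**Figure D1:**
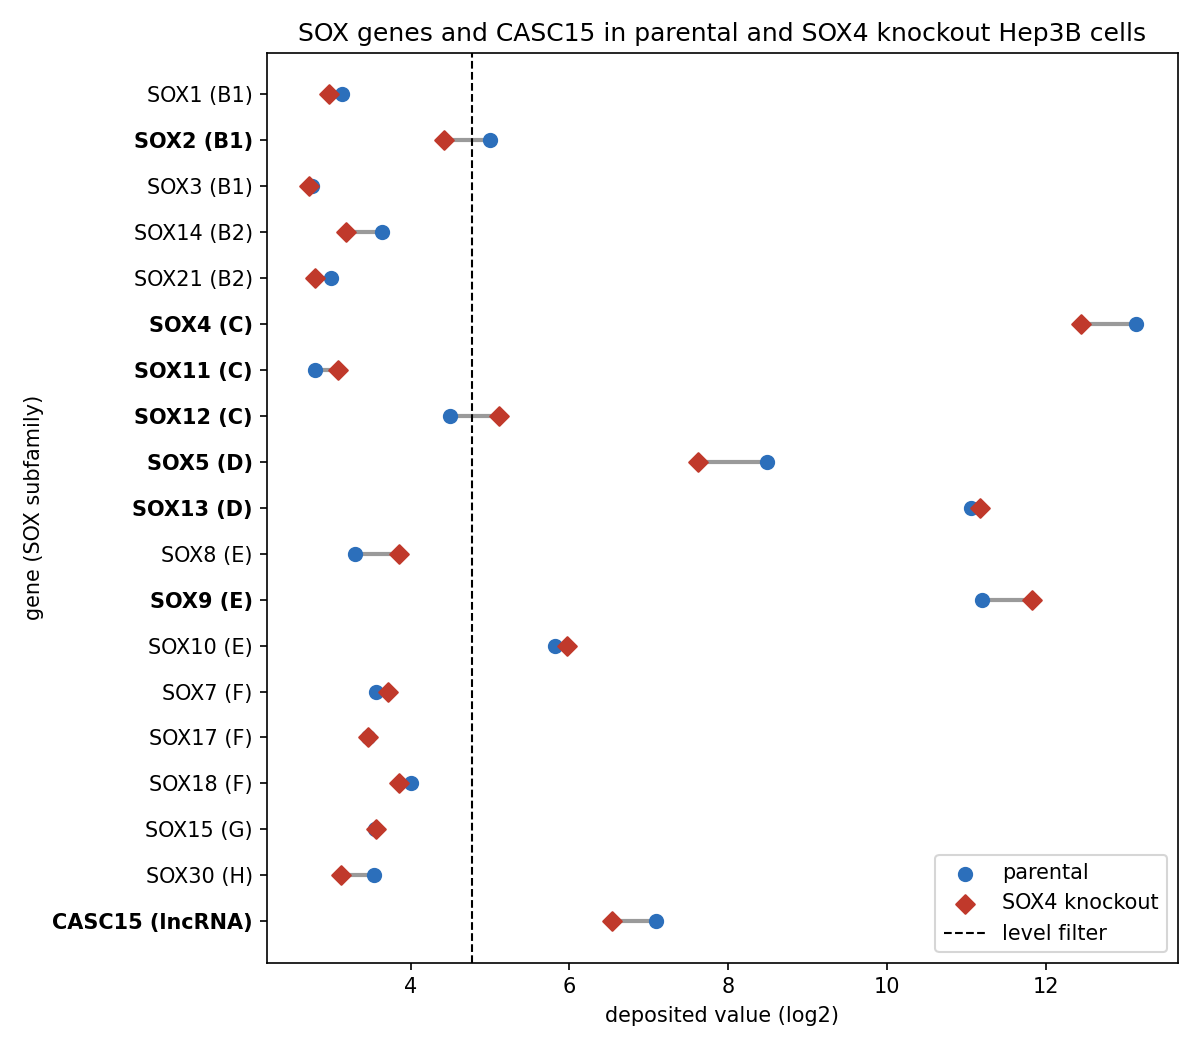
Deposited log2 value (horizontal axis) of each SOX gene with a cluster of its own and of CASC15, in the parental array (blue circles) and the SOX4 knockout array (red diamonds), 1 array each, with the subfamily in brackets, the members in bold and the level filter of 4.78 as a dashed line. SOX4 lies at 13.14 and 12.44, and most SOX genes outside the members lie under the filter in both arrays.

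SOX5 had the largest difference of the members in its brightest cluster. That cluster read 7.62 after knockout and 8.49 in parental cells, a difference of -0.87 or 1.82-fold lower. Of 1519 genes of like level, 273 or 18.0% differed by as much or more. SOX5 had 3 clusters, and the other two went the opposite way by a smaller amount. They stood at 5.03 against 4.78 and at 4.05 against 3.80, each a difference of 0.25. The mean over the 3 clusters differed by -0.12, which is lower too but by less than in the brightest cluster.

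SOX13, a group D factor first described as an islet cell autoantigen that also binds the T cell factor TCF7 in mouse, stood at 11.17 against 11.06. Its difference of 0.11 was smaller than that of 1105 of 1345 genes of like level. The cluster that the annotation gives to SOX6 and MIR6073 together stood at 12.38 against 12.37, a difference of 0.02 that cannot be assigned to SOX6. SOX6 is known for silencing fetal globin genes in red cell precursors.

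SOX9 was the highest of the members by difference. It read 11.83 after knockout and 11.20 in parental cells, a difference of 0.64 or 1.56-fold higher. Of 1249 genes of like level, 285 or 22.8% differed by as much or more. The other group E genes were SOX10, a factor of neural crest and myelinating cells, at 5.97 against 5.82, and SOX8 at 3.86 against 3.31, under the filter in both arrays. All 3 genes of group E stood above 0, with differences of 0.64, 0.14 and 0.55. Of 33616 named genes 16529 stood above 0, and 3 genes are too few to call the group apart.

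SOX2 read 4.43 after knockout and 4.9997 in parental cells. Its knockout value lay under the filter, and the difference of -0.57 was 1.49-fold. Of 4463 genes of like level, 744 or 16.7% differed by as much or more. The other group B1 genes, SOX1 at 2.97 against 3.14 and SOX3 at 2.72 against 2.76, lay under the filter in both arrays.

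CASC15, transcribed from the region beside SOX4 that is known as a neuroblastoma susceptibility locus, read 6.53 after knockout and 7.10 in parental cells. The difference of -0.56 was 1.48-fold lower. Of 1870 genes of like level, 557 or 29.8% differed by as much or more. NBAT1, a non-coding RNA gene on the other strand within the same locus, stood at 2.92 against 3.10, under the filter.

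**Figure D2:**
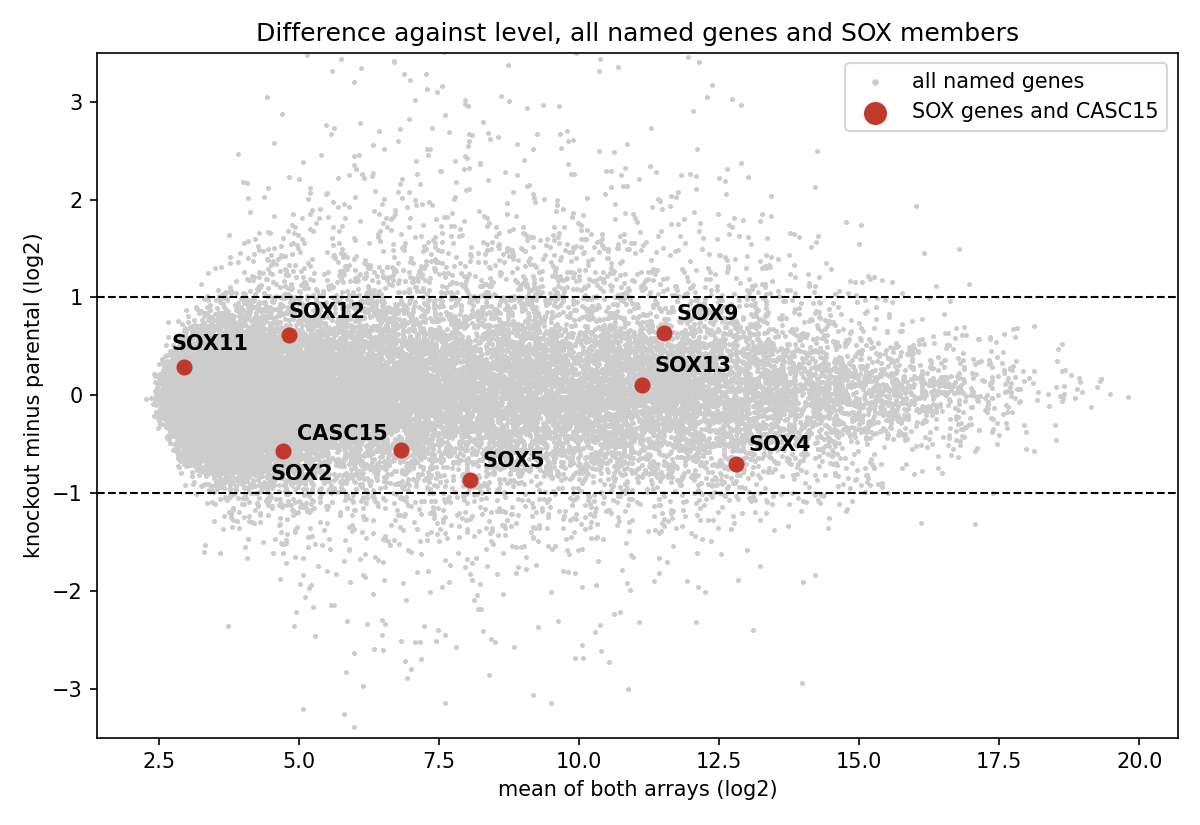
Difference between knockout and parental array (vertical axis, log2) against the mean of both arrays (horizontal axis, log2) for 33616 named genes in grey and the 8 measured members in red; dashed lines mark 2-fold, and 72 genes lie beyond the plotted range of 3.5 in either direction. All 8 members lie between the dashed lines, from -0.87 for SOX5 to 0.64 for SOX9.

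Across the wider family, 18 of 19 listed SOX genes had a cluster of their own and 7 passed the filter, namely the 6 SOX genes described above it and SOX10. None of the 18 was 2-fold apart, where 5.3% of all named genes and 10.1% of those above the filter were. So few genes do not set the family apart. In group B2, SOX14 stood at 3.19 against 3.64 and SOX21 had a difference of -0.21. In group F, whose members act in endothelium and endoderm, SOX7 stood at 3.71 against 3.57, SOX17 at 3.46 in both arrays, and the difference of SOX18 was -0.15. SOX15 stood at 3.56 against 3.55 and SOX30, a testis factor, at 3.13 against 3.54. All of these lay under the filter. The median difference of the 18 genes was -0.02.

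The genes next to each member were set beside it, taking the 5 named and measured genes on either side in RefSeq order. Around SOX4, 6 of the 10 neighbours passed the filter and none was 2-fold apart, where 10.1% of all genes above the filter were. So few neighbours do not set the region apart. The median difference was -0.15 over all 10 neighbours and -0.43 over the 6 above the filter. The lowest neighbour and the one closest to SOX4 in value was E2F3-IT1, an intronic transcript of the cell cycle factor gene E2F3, at -0.60. The pseudogene BOLA2P3 and CASC15 stood at -0.56 each, and the highest neighbour was LINC00581 at 0.13. CDKAL1, a large gene for a tRNA-modifying enzyme on the other side of SOX4, stood at 13.52 in both arrays.

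The neighbours of SOX12 on chromosome 20 were mostly higher after knockout. Of 10 neighbours 7 stood above 0, where 16529 of 33616 named genes did. Of the 8 above the filter 2 passed 2-fold upward and 0 downward. Among all genes above the filter 6.5% passed upward and 3.64% downward, and so few neighbours do not set the region apart. The median difference was 0.69 over all 10 and 0.70 over the 8 above the filter, near the 0.62 of SOX12 itself. NRSN2, a neuronal membrane protein gene next to SOX12, stood at 10.20 against 8.18, a difference of 2.01. RBCK1, a subunit of the ligase that builds linear ubiquitin chains, stood at 10.59 against 8.86, a difference of 1.72. The antisense transcript NRSN2-AS1 was at 0.84 and the stress pseudokinase gene TRIB3 at 0.92. TBC1D20 was at 0.57 and ZCCHC3 at 0.04. The 3 lower neighbours were CSNK2A1 at -0.16, C20orf96 at -0.20 and the defensin gene DEFB132, under the filter, at -0.24.

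Near the other members the neighbours went both ways. PLEKHA6 stood at 1.96 and GOLT1A at 1.13 beside SOX13 on chromosome 1, while ETNK2, an ethanolamine kinase gene, stood at -0.75. Around SOX5 on chromosome 12, BCAT1, which transaminates branched-chain amino acids, stood at -1.29 and the pseudogene RPS27P22 at 1.01. The highest neighbour of SOX5, MIR920, was at 1.02 and lay under the filter in both arrays. Around SOX9, the zinc transporter gene SLC39A11 was highest at 0.57 and LINC01152 lowest at -0.54. None of these neighbours was 2-fold apart above the filter, where 10.1% of all genes above it were, and they are too few to set the region apart. Around SOX2, the neighbours ran from -0.44 for RN7SL703P to 0.60 for FAUP2. Those of SOX6 ran from -0.37 for INSC to 0.56 for OR7E14P, and those of SOX11 from -0.33 for LINC01249 to 0.24 for MIR7515. CASC15 had SOX4 as its lowest neighbour and HDGFL1, at 0.15, as its highest.

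**Figure D3:**
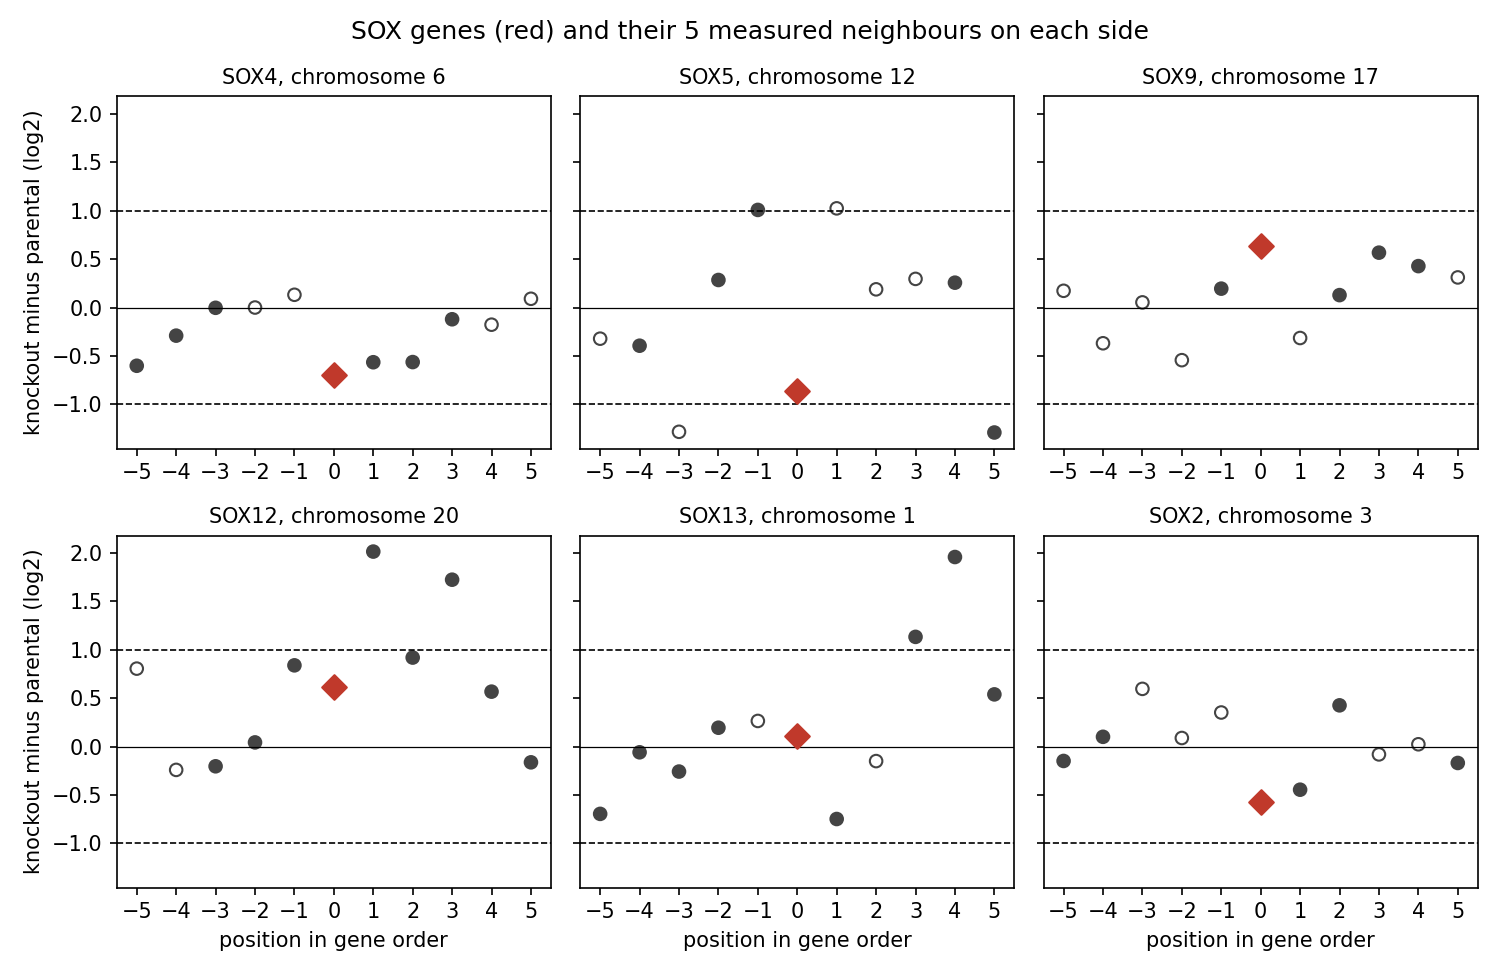
Difference between knockout and parental array (vertical axis, log2) of 6 SOX genes (red diamonds) and of their 5 measured neighbours on each side by position in gene order (filled circles above the level filter, open circles at or under it); dashed lines mark 2-fold. Neighbours of SOX12 reach 2.01 and 1.72, and those of SOX4 stay between -0.60 and 0.13.

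Genes reported elsewhere to be SOX4 targets moved in both directions. Of 15 measured, 12 passed the filter, of which 3 stood above 0 and 9, the member SOX2 among them, below. Of all 16808 genes above the filter, 7824 stood below 0. In this list 2 passed 2-fold upward and 1 downward, or 25% of those above the filter. Their median was -0.29 against 0.04 for all genes above the filter. These are 3 genes set against a background of 10.1%, too few to call the list apart. TEAD2, a partner of YAP and a SOX4 and SOX11 target in mouse embryos, stood at 8.72 against 11.40, a difference of -2.69. The guidance ligand gene SEMA3C stood at 10.78 against 9.33, a difference of 1.45, and the growth factor receptor gene EGFR at 12.89 against 11.81, a difference of 1.08. CXCL12, a chemokine gene, stood at 10.28 against 11.26 and came just short of 2-fold at -0.98. EZH2, the histone methyltransferase, was at -0.39, NRP1, a semaphorin receptor, at -0.54, and DHX9, an RNA helicase, at -0.44. EZH2 and NRP1 had 2 clusters each, and these values are those of the brighter cluster. The other measured targets had 1 cluster each. With the other cluster choices 4 targets passed 2-fold in place of 3, so the gene gained there was EZH2 or NRP1.

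The other proteins with an HMG box had 3 of 18 genes above the filter past 2-fold downward and 0 upward, with a median of -0.09 above the filter. That is 16.7%, where 10.1% of all genes above the filter passed 2-fold either way and 3.64% downward, and 3 genes are too few to call the list apart. TOX, a chromatin factor of T cell development, stood at 4.65 against 7.62, a difference of -2.97, and its knockout value lay under the filter. TCF7L1, a Wnt pathway repressor, stood at 6.40 against 8.19, a difference of -1.79. HMGB3, a chromatin protein with many pseudogenes in its family, stood at 9.92 against 11.09, or -1.17. HMG20B, a subunit of a histone demethylase complex, was highest at 0.99. LEF1, the Wnt effector, was at 0.66 and TCF7L2, its relative, at 0.07.

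Proteins that bind SOX factors had 2 of 10 genes above the filter past 2-fold upward and 0 downward. That is 20%, where 10.1% of all genes above the filter passed 2-fold either way and 6.5% upward. The count was 1 after quantile normalization or removal of the trend with level, and so few genes do not set the list apart. PAX6, which pairs with SOX2 in the eye, stood at 5.16 against 2.99, a difference of 2.17 whose parental value lay under the filter. SMAD3, a carrier of TGF-beta signals that also binds SOX9, stood at 12.38 against 11.36, a difference of 1.01. SDCBP, the scaffold syntenin that stabilises SOX4 protein, was at 0.60 and the Wnt effector gene CTNNB1 at 0.69. BCL11A, a globin repressor that works with SOX6, was at -0.90, and CTBP2, a corepressor bound by SOX6, was at 0.27. KLF4 at 1.02 passed 2-fold but lay under the filter, and NANOG was lowest at -0.94.

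The route from TGF-beta to SOX4, a known inducer in epithelial cells, had all 8 measured genes above the filter. Of these SMAD3 alone, also counted among the partner proteins, was 2-fold higher and 0 were 2-fold lower. That is 12.5%, where 10.1% of all genes above the filter passed 2-fold either way, so the list is not set apart. SMAD3 did not pass 2-fold after quantile normalization or removal of the trend with level. The receptor gene TGFBR2 was lowest at -0.69, TGFBR1 was at -0.26, and the ligand genes TGFB1 and TGFB3 were at 0.11 and 0.43. SMAD4 was at 0.35 and the inhibitor gene SMAD7 at -0.50. The list had a median of 0.18.

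Among pluripotency genes, the program of SOX2, none of the 5 above the filter was 2-fold apart, where 10.1% of all genes above it were. These 5 are too few to call the list apart. Of these 5, 4 stood below 0, with a median of -0.83, where 7824 of all 16808 genes above the filter did. The other 7 of the 12 measured genes lay under the filter. Over all 12, 10 stood below 0, against 16705 of 33616 named genes. DNMT3B, a DNA methyltransferase, stood at 9.40 against 10.35, a difference of -0.95. NANOG stood at 6.37 against 7.30, or -0.94, and LIN28B, which blocks let-7 processing, at 9.83 against 10.66, or -0.83. SALL4 was at -0.61, and FGF4, the highest at 0.15, lay under the filter. POU5F1, the partner of SOX2, was at 0.09, and it and NANOG have close pseudogenes that may share signal.

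Genes of the bile duct program, which SOX9 marks in liver, had 1 of 8 above the filter past 2-fold upward and 0 downward. That is 12.5%, where 10.1% of all genes above the filter passed 2-fold either way, so the list is not set apart. Of these 8, 3 stood above 0 and 5 below, with a median of -0.30. Of all 16808 genes above the filter 8953 stood above 0 and 7824 below, with a median of 0.04. SPP1, the secreted osteopontin gene, stood at 7.77 against 5.25, a difference of 2.52. KRT7 was at 0.70 and KRT19 at 0.08, both duct keratins. ONECUT2 was lowest at -0.45, and EPCAM was at -0.41.

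Cartilage genes, which SOX9 drives with SOX5 and SOX6, passed the filter in 3 of 13 cases. MATN3, a matrix protein of cartilage, stood at 10.18 against 8.82, a difference of 1.36, while COL9A3 was at 0.07 and SNORC at -0.23. COL2A1 at 3.77 against 3.86 and HAPLN1 at 3.67 against 3.44 lay under it in both arrays, as did COL9A1, the lowest at -0.49.

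Of neuronal genes linked to group C factors, 2 of 8 passed the filter. TUBB2B, a tubulin close in sequence to TUBB2A, stood at 5.82 against 8.51, a difference of -2.69, and MAP2 was at 0.07. DCX at 3.39 against 3.31 lay under the filter, and INA was the highest at 0.21. The non-coding RNA genes by SOX loci had 3 of 6 above the filter and none 2-fold apart, where 10.1% of all genes above it were. These 3 are too few to call the list apart. They ran from CASC15 at -0.56 to SOX9-AS1 at 0.20, with SOX2-OT at 5.19 against 5.09.

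**Figure D4:**
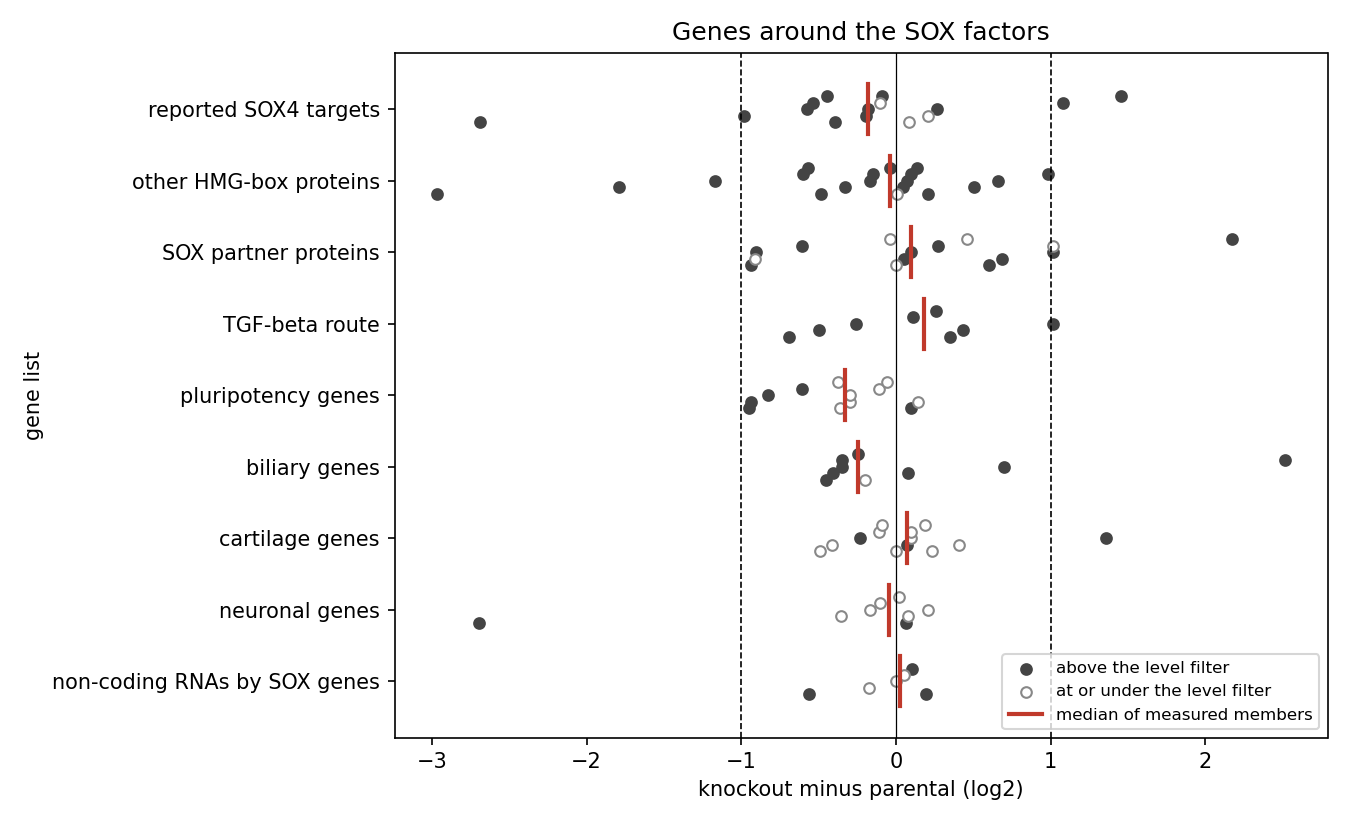
Difference between knockout and parental array (horizontal axis, log2) of each measured gene of 9 gene lists (vertical axis), filled where above the level filter, with the list's median as a red bar; dashed lines mark 2-fold. TOX, TEAD2 and TUBB2B lie lowest, between -2.97 and -2.69, and SPP1 and PAX6 highest, at 2.52 and 2.17.

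The genes most like each member were taken as the protein-coding genes whose pair of values lay nearest to its own, by Euclidean distance over the 2 arrays. With 2 values per gene this is a description of level and difference only. For SOX4 these were GUF1 at a distance of 0.07, PPWD1 at 0.08 and BLOC1S6 at 0.09. For SOX5 they were CD74, BMF and NARS2, for SOX9 USF3, EFEMP2 and LENG8, and for SOX13 DIAPH1, HADH and PCGF2. SOX12 lay nearest to SYT7, SERHL2 and ZG16, SOX2 to TMEM178B, TRPC7 and GNG2, and CASC15 to C2CD2, PMFBP1 and SORBS3.

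Hepatocyte markers were present in both arrays, with all 10 measured markers above the filter and ALB at 18.84 against 18.87. Their mean was 15.05 after knockout and 15.84 in parental cells, and AFP at 9.73 against 15.50 was 54.7-fold lower and APOA1 at 11.27 against 12.44 was 2.25-fold lower. None of 5 endothelial markers passed the filter. Of the fibroblast markers 4 of 5 did, with a mean of 7.35 against 6.56. LUM stood at 12.69 against 7.90, while the other 4 were lower after knockout, from -0.45 for COL1A1 to -0.09 for DCN, so that the median difference of the list was -0.13. The 4 measured leukocyte markers had a mean of 6.66 against 6.13, and PTPRC at 4.72 against 4.76 lay under the filter. The 2 that passed it were LYZ at 11.87 against 9.62 and CD14 at 6.26 against 5.92. Of markers of a cervical line 2 of 4 did, VIM at 14.67 against 13.80 and CDKN2A at 10.54 against 11.65, while KRT5 at 2.96 against 3.20 lay under it. The part of these differences in the results was not tested.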

How the data were processed

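Each deposited value is a log2 signal of 1 transcript cluster that the authors made with RMA, run in Transcriptome Analysis Console, as the submitters' processing notes list them. Versions and genome build were not given in the sources used here. This method subtracts background, equalizes arrays by quantiles and combines the probes of a cluster. The log base is unstated, and RMA writes base 2. Values reached 19.8 in both arrays, with 870 and 838 of 135750 clusters above 16, the bits of a scanner, so the scale was altered in a way not given and folds hold on the deposited scale only. Per the labels the array was the Human Transcriptome Array 2.0, whose usual identifiers have another form. The medians were 3.80 after knockout and 3.83 in parental cells.

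Names came from the supplied platform annotation, which gave 36176 clusters 1 symbol, 1119 several and 98455 none. RefSeq of GRCh38.p14 served for 33036 matched symbols, gene order and upstream windows. The representative cluster, level filter and neighbour rules stand beside the results. Up to 4 genes per list at least 2-fold apart above the filter were named, with the highest and lowest member, and others were picked after their values were seen. The members and lists were chosen with earlier results of these data known. Counting was tested on simulated data. Alternatives were quantile normalization, centring, removal of the level trend (lowess in statsmodels 0.14.6), other cluster choices, other filters, a floor, 1.5-fold and protein-coding genes only. The values are array signals, so a count model does not apply, and with 1 array per group no test could be used. The number of arrays limits the precision. TCF7, TUBB3 and a few other listed genes were not analysed here.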

Additional observations from a re-analysis of the deposited data

How the results depend on the processing

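SOX4 stayed lower, from -0.76 to -0.67, and SOX9 (0.56 to 0.67), SOX12 (0.64 to 0.65), SOX2 (all -0.54) and CASC15 (-0.56 to -0.53) also kept their direction, under the 3 alternatives that could move them: quantile normalization, centring and removal of the level trend. Other cluster choices and the floor leave these values as they are, since each gene has 1 cluster and lies above the floor. SOX5 moved to -0.12 as the mean of its 3 clusters and to 0.25 in the cluster with the lowest mean, since its clusters differ in direction. SOX11 moved to 0 with values floored at the median, being under that floor in both arrays. At 1.5-fold in place of 2-fold, 4 of the 7 members above the filter were counted in place of 0. These were SOX4, SOX5, SOX9 and SOX12, which were also the 4 SOX genes counted in the wider family. Of all 16808 genes above the filter 2605 were then higher and 1882 lower, in place of 1093 and 612. Over all gene lists 27 were counted in place of 12, and a gene in 2 lists, such as SMAD3, counts in both. With the filter at the 75th percentile the gene lists held 7, and 643 genes were higher and 332 lower. That filter left 1 in place of 3 other HMG-box genes, 1 in place of 2 partners, and 0 in place of 1 in the bile duct and neuronal lists. SMAD3 was no longer past 2-fold after quantile normalization or removal of the level trend, and the pluripotency list gained 1 gene after quantile normalization. The reported SOX4 targets held 4 in place of 3 after quantile normalization, removal of the level trend and the other cluster choices. Under the other cluster choices the gene gained was EZH2 or NRP1, which had 2 clusters each. No paired analysis was possible because each group had 1 array, which also leaves no replicate to leave out. No detection calls were used, so values under the filter have no bound against background.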

Other observations

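A second cluster annotated to SOX9-AS1, the antisense neighbour of SOX9, together with an uncharacterised gene read 5.96 after knockout and 6.47 in parental cells, a difference of -0.50, while the cluster carrying SOX9-AS1 alone was at 0.20. The symbols it carries prevent its assignment to either gene.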
